A study of Mus musculus with 24 samples.

Results

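The major urinary protein (Mup) genes Mup1, Mup3, Mup4, Mup5, Mup6, Mup20 and Mup21 were examined in peak lists of mouse liver H3K27ac ChIP-seq, which maps acetylation of lysine 27 on histone H3, a mark of active promoters and enhancers. The 7 genes were taken by name, and every peak overlapping a gene body or the 10 kb on either side of it was kept. They are 7 of the 41 genes named Mup in the annotation of this cluster, of which 21 are protein-coding and 20 are pseudogenes, and 7 of 22350 protein-coding genes on the autosomes and the X chromosome. The windows of Mup4 and Mup6 overlap, so the 7 genes gave 6 merged windows of 189059 bp in all. These held 62 of the 336916 peaks of the 4 lists. Joined where they overlapped, the 62 peaks made 18 of 119348 regions of the genome.

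The mice were 8 weeks old, of both sexes, and inbred, either C57BL/6J (called B6) or CAST/EiJ (called CAST), strains which derive from different subspecies. There were 4 groups of 5 livers (B6 male, B6 female, CAST male, CAST female) and 4 input controls, 24 samples in all. The deposited list of each group pools its 5 livers, so there is 1 value per group, no spread between livers and no test, and every difference below compares these lists. One label gives CAST for all females and B6 for all males, which goes against the titles of the B6 female and CAST male groups, so groups follow the titles and list names.

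Mup genes encode small secreted lipocalins, proteins with a barrel-shaped pocket that binds volatile pheromones. The liver is their main source in the adult male mouse, and the proteins leave the body in urine as scent signals. In mouse liver their expression is known to be higher in males and to follow the pulsatile male pattern of pituitary growth hormone, which acts through the transcription factor STAT5. Mup1 is one of a group of near-identical central genes of the cluster and has also been studied as a circulating metabolic signal. Mup20 encodes darcin, the male sex pheromone. Mup4 and Mup5 are best known from nasal, lacrimal and salivary tissue.

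All 7 genes lie on chromosome 4 of the mm9 assembly (GENCODE vM1 annotation, 1-based positions). In chromosome order they are Mup4 (ENSMUSG00000041333.6, chr4:59969676-59973582, minus strand), Mup6 (ENSMUSG00000078689.2, chr4:59977166-60020146, plus strand), Mup1 (ENSMUSG00000078683.2, chr4:60510884-60514832, minus), Mup5 (ENSMUSG00000058523.2, chr4:61492353-61496267, minus), Mup20 (ENSMUSG00000078672.2, chr4:61711268-61715192, minus), Mup3 (ENSMUSG00000066154.4, chr4:61744510-61748376, minus) and Mup21 (ENSMUSG00000066153.2, chr4:61808966-61811897, minus). Each is a compact gene of 7 exons, or 6 in Mup21. The 43.0 kb model of Mup6 comes from a single long transcript, and its start was set at position 60016310, that of the transcript with the greatest spliced length. The whole cluster spans 1842 kb.

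The members have copies of each other's sequence, and the study kept only reads that map to 1 place in the genome. Sequence with several copies could therefore lose reads, except where the other read of a pair lay in unique sequence. For every base, the number of times the 50-base sequence starting there occurs in mm9 was counted, and a base was called unique where the answer was 1. The 250 bases upstream of 4 starts are printed to show the contrast between the genes, 5′ to 3′ on the strand of the gene and from mm9. Capitals mark bases that start a unique 50-base sequence. The Mup1 promoter (chr4:60514833-60515082, minus strand) is mostly lower case, with 32% of its bases unique. That of Mup4 (chr4:59973583-59973832, minus) is unique at 99.6%. Those of Mup3 (chr4:61748377-61748626, minus) and Mup21 (chr4:61811898-61812147, minus) are unique at 96.4% and 95.2%.
Mup1: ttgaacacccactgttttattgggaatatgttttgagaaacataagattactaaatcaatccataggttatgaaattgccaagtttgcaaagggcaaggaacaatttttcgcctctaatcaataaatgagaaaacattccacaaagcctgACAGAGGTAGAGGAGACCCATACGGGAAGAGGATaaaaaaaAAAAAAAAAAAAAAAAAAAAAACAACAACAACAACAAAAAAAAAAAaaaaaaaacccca
Mup4: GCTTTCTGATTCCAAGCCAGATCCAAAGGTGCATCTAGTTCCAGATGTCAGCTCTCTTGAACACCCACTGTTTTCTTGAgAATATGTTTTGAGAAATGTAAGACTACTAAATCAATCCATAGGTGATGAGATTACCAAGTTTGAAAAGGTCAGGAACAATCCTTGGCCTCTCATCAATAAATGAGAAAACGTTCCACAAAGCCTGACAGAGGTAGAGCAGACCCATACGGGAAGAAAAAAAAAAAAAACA
Mup3: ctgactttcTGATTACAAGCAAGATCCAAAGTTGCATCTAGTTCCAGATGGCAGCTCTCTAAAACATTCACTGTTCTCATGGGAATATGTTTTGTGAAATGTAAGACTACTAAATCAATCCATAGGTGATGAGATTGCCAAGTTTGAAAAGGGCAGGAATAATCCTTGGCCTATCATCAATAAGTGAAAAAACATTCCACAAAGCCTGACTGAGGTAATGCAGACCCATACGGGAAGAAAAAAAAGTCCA
Mup21: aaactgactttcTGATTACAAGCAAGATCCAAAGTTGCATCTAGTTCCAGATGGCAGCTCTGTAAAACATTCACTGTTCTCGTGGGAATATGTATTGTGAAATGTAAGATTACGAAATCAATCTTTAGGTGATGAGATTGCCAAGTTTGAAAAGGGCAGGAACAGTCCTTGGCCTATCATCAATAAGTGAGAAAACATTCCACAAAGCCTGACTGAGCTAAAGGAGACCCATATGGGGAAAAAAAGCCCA

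The Mup3 and Mup21 promoters were 91.7% identical over these 250 bases, and Mup4 and Mup6 were 90.5% identical. Mup4 and Mup3 shared 87.7%, although only the latter carried peaks. The core of the STAT5 site, TTCNNNGAA (its own reverse complement, so both strands read alike), was absent from all 7 of these promoter stretches and was found in 6.83% of 22345 protein-coding promoters of the same length. The TATAAA box letters were present in 1 of the 7 (Mup20, at -183 to -178) against 12.3%, and the CCAAT letters in 1 (Mup1, on the opposite strand at -232 to -228) against 35.0%, both strands searched. The TATAAA and CCAAT matches did not overlap another motif.

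The members fell into 3 kinds. Mup4, Mup6 and Mup1 had no peak in any list. Mup5 had peaks only far from its start. Mup20, Mup3 and Mup21 had peaks in their upstream kilobases, and Mup3 and Mup21 also had peaks at the start. At Mup3 only the CAST female peak lay across the start, and those of the other 3 lists began 0.03 to 0.11 kb past it. At Mup21 the peaks of 3 lists lay across it and that of the CAST female list began 0.027 kb past it. Over all protein-coding genes 23.5% of windows had no peak in any list, against 3 of the 7 members. A peak lay within 1 kb of the start in all 4 lists at Mup3 and Mup21, 2 of the 7, against 52.3% of all genes.

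**Figure D1:**
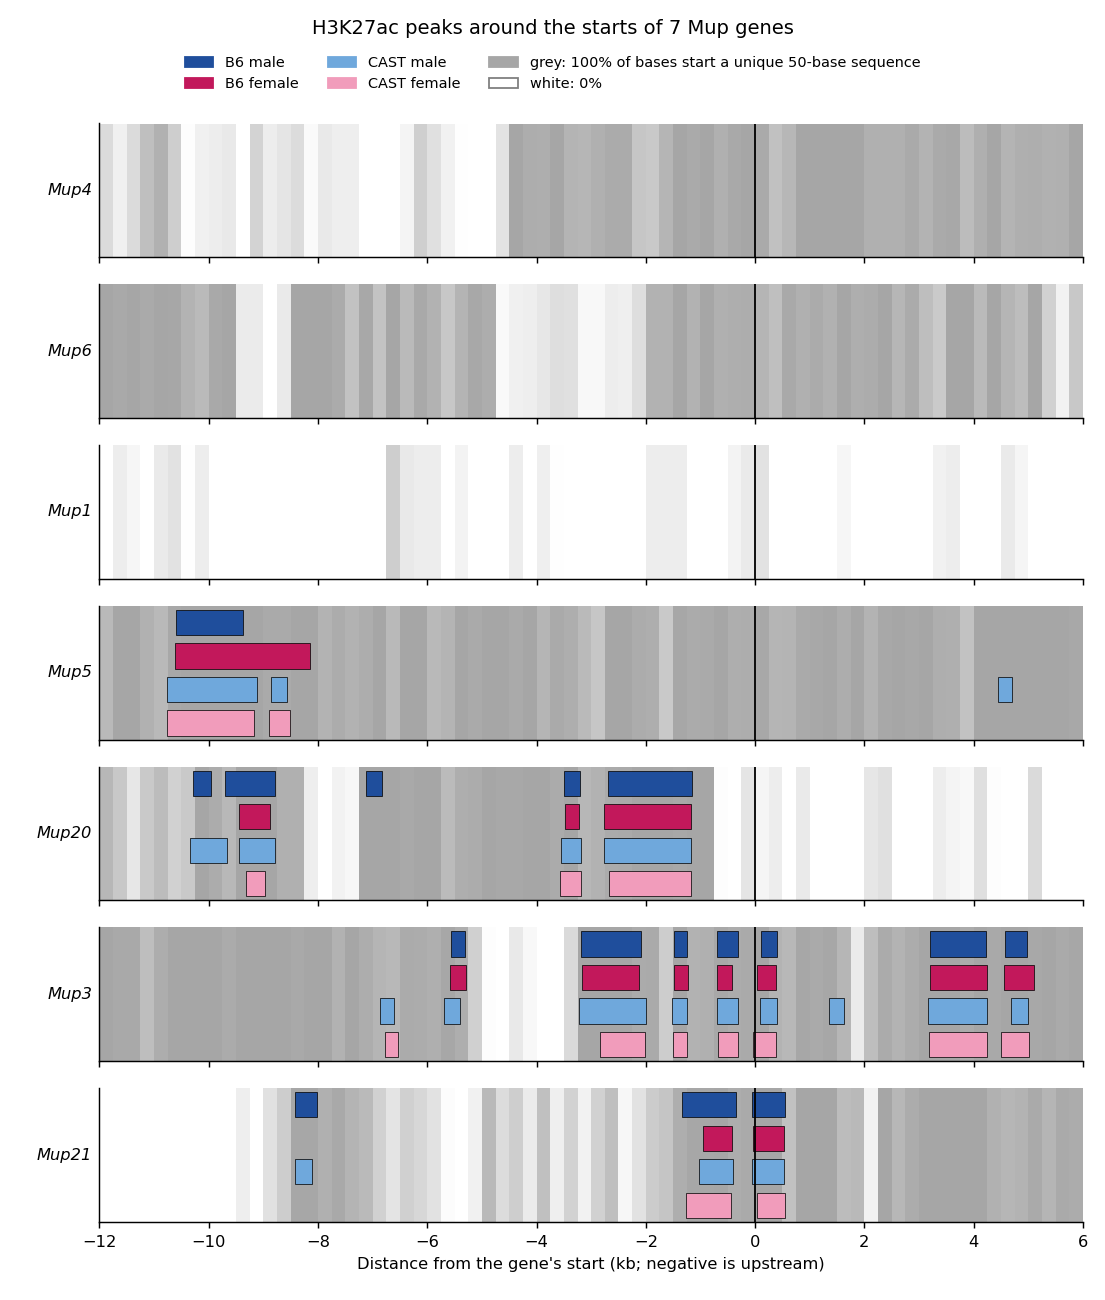
H3K27ac peaks of the 4 lists (coloured bars) by distance in kb from each gene's start, with negative values upstream, over a grey background that darkens with the share of bases starting a unique 50-base sequence in 250-base steps. The Mup4, Mup6 and Mup1 rows hold no peak. No Mup20 peak lies in the mostly white sequence around its start, and the peak near -8 kb of Mup21 is present in the 2 male lists.

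In the merged windows the lists held 16 peaks (B6 male), 13 (B6 female), 19 (CAST male) and 14 (CAST female). They covered 9378, 9159, 10290 and 8479 bp in that order. The fold enrichment over background that the authors deposited for each peak, averaged with the peak lengths as weights, was 4.07, 4.32, 3.93 and 4.32. The male lists thus had more peaks, and a lower weighted mean, than the female lists of the same strain. Member peaks stood above the middle of their lists, with median fold enrichments of 3.56, 4.01, 3.21 and 3.29 against 2.53, 2.50, 2.57 and 2.57 over whole lists. The windows were covered at 4.96%, 4.84%, 5.44% and 4.48%, close to the median protein-coding window at 4.82%, 4.68%, 5.10% and 4.66%.

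Mup4 and Mup6 are neighbours at one end of the cluster, transcribed away from each other. Neither had a peak in its window, although most of that sequence was unique. In the Mup4 window 72.2% of bases were unique and within 1 kb of its start 91.4%. The Mup6 values were 63.6% and 88.8%. No list called a peak at either start. Unique sequence was counted in mm9 alone, and whether reads were lost there was not tested.

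Mup1, the central gene, differed in its share of unique sequence. Its window was unique at 7.34% and the kilobase on either side of its start at 8.80%, and each 50-base sequence of the gene occurred a median of 5 times. The lists therefore hardly bear on Mup1, and no peak there does not show an absence of the mark. The longest stretch of the cluster with no peak in any list ran 717 kb (chr4:59969676-60686242). It holds Mup4, Mup6, Mup1 and 9 of the protein-coding Mup genes in all, and 19.7% of its bases were unique. A further 2 stretches of 498 kb and 277 kb without a peak were unique at 6.50% and 15.0%.

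Mup5, a gene known from glands of the head, had a region from -10.8 to -8.14 kb (chr4:61504411-61507037) that lay across the edge of its window and was called in all 4 lists. Its highest fold enrichment was 3.56 (B6 male), 4.52 (B6 female), 4.95 (CAST male) and 5.23 (CAST female). Both CAST lists were above both B6 lists. The remaining peak of Mup5 was weak and far downstream, at 4.45 to 4.70 kb (chr4:61491572-61491815), with 1.92 in the CAST male list and none in the other 3. The start itself was bare in every list, although 92.2% of the bases within 1 kb of it were unique.

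Mup20, the darcin gene, had 4 upstream regions and none within 1 kb of its start. Only 23.3% of the bases within 1 kb of the Mup20 start were unique, whereas its 4 regions were unique at 95.5% to 100.0%. Its strongest region (chr4:61716353-61717960, -2.77 to -1.16 kb) had 4.99 (B6 male), 6.15 (B6 female), 4.92 (CAST male) and 5.93 (CAST female). Both female lists were higher than both male lists there. The neighbouring region at -3.57 to -3.19 kb (chr4:61718379-61718761) had 3.55, 4.01, 4.14 and 4.29 in the same order, and B6 male was lowest. At -7.12 to -6.82 kb (chr4:61722016-61722308) a single peak of 2.69 stood in the B6 male list.

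The fourth Mup20 region, at -10.3 to -8.79 kb (chr4:61723977-61725530), went the other way. It had 4.34 (B6 male), 2.94 (B6 female), 3.89 (CAST male) and 2.52 (CAST female). Both male lists were above both female lists, 1.47-fold in B6 and 1.54-fold in CAST. In each male list a second peak extended the region upstream, and in each female list it was a single shorter peak. Thus the strongest and the most upstream region of Mup20 had opposite orders of the sexes in both strains.

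Mup3 had the most regions, 9, and 6 of these were present in all 4 lists. The region at the 3′ end of the gene (chr4:61744127-61745206, 3.17 to 4.25 kb past the start) overlaps the annotated 3′ untranslated part. It had 3.69 (B6 male), 4.48 (B6 female), 5.25 (CAST male) and 5.89 (CAST female). Both CAST lists exceeded both B6 lists, 1.42-fold in males and 1.32-fold in females. Farther downstream, at 4.51 to 5.10 kb (chr4:61743278-61743867), the values were 1.78, 2.42, 2.05 and 2.63 in the same order of lists. Both female lists were above both male lists there, with male to female ratios of 0.737 in B6 and 0.780 in CAST.

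Around the Mup3 start the lists were close to each other. The region over the first exons (chr4:61747979-61748419, -0.043 to 0.397 kb) had 2.67, 2.56, 2.88 and 2.83. The region just upstream (chr4:61748687-61749081, -0.705 to -0.311 kb) had 3.21, 3.33, 3.23 and 3.31. These promoter-proximal values differed by less than 1.25-fold between any pair of lists. Next upstream, at -1.52 to -1.22 kb (chr4:61749600-61749892), B6 male was lowest, with 2.23 against 2.78, 3.21 and 3.09.

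The broad Mup3 region at -3.22 to -2.0 kb (chr4:61750379-61751592) overlaps an exon of the non-coding transcript Gm12909. It had 4.02 (B6 male), 4.17 (B6 female), 3.66 (CAST male) and 3.27 (CAST female), and here both B6 lists were above both CAST lists. The weak upstream regions were not shared by all. The one at -5.70 to -5.29 kb had 2.2, 2.66 and 1.74 and no peak in the CAST female list. The one at -6.87 to -6.53 kb had 2.48 and 2.51 in the CAST male and female lists and no peak in either B6 list. A peak of 2.1 over coding sequence, 1.35 to 1.62 kb past the start, was in the CAST male list alone. Another region called in all lists (chr4:61758458-61760043) lay just outside the Mup3 window and was not counted.

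Mup21, at the far end of the cluster, had the stronger of the 2 marked starts. The joined region across its start (chr4:61811348-61811945, -0.048 to 0.549 kb) had 5.93 (B6 male), 4.92 (B6 female), 4.69 (CAST male) and 4.09 (CAST female). The region upstream of it (chr4:61812238-61813226, -1.33 to -0.341 kb) had 6.28, 4.16, 4.74 and 3.59 in the same order. In both, the male list was above the female list of its strain and B6 was above CAST of the same sex. The male to female ratio of the upstream region was 1.51 in B6 and 1.32 in CAST, and that of the region across the start was 1.2 and 1.14.

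Mup21 also had the 1 region of the 7 members that was male-only in both strains. At -8.43 to -8.01 kb (chr4:61819909-61820324) the males had a fold enrichment of 3.56 (B6) and 3.19 (CAST), and neither female list had a peak. Over the genome 2.35% of regions were male-only in both strains and 1.23% female-only in both. No member region was female-only in both.

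**Figure D2:**
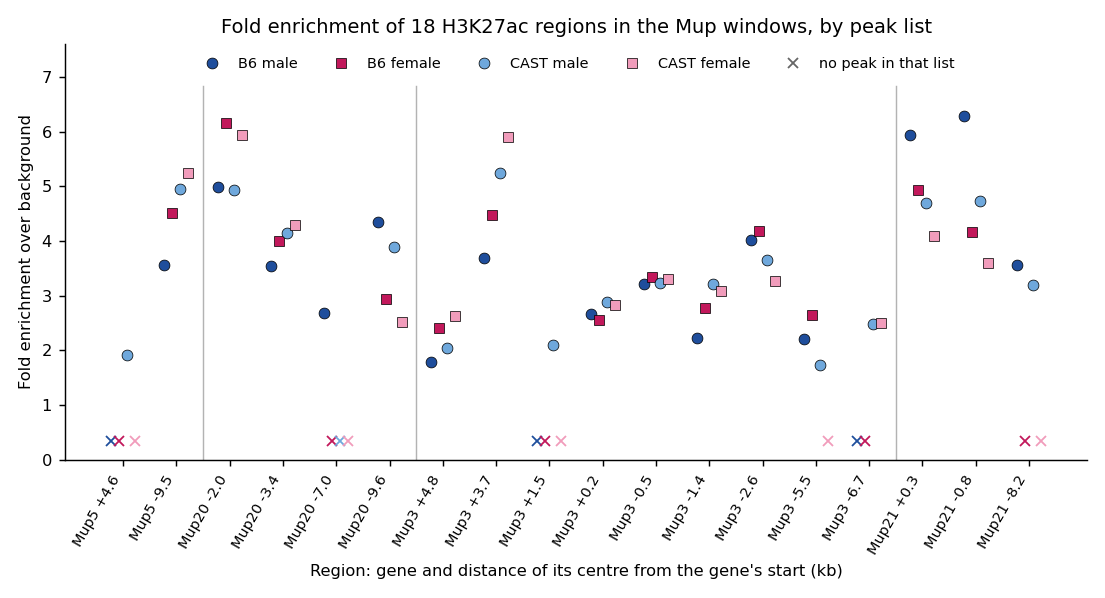
Fold enrichment over background (vertical axis) of the 18 regions, named by gene and by the distance of the region's centre from the start in kb, with 1 point per pooled list and a cross where the list had no peak. Male points (circles) lie above female points (squares) in the 3 Mup21 regions or stand alone there, and below them in the Mup20 region at -2.0 kb.

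The question of sex bias was put to the 12 regions called in all lists, using a fold of 1.25 chosen after the values were seen. The fold enrichment was more than 1.25-fold higher in males in both strains in 2 of the 12, the -9.6 kb region of Mup20 and the upstream region of Mup21, against 1.19% of the 48266 such regions of the genome. It was more than 1.25-fold higher in females in both strains in 1, the downstream region of Mup3, against 0.472%. At a limit of 1.2-fold there were 2 on each side, with the strongest region of Mup20 added among females. At 1.5-fold there were 0 on each side. Genome shares were counted at 1.25-fold only. With these small numbers no more is read from the shares. Within B6, 2 of 12 were past this fold in males (background 5.85%) and 2 in females (5.41%). Within CAST, 2 were past it in males (11.6%) and 1 in females (2.99%). By direction alone, 4 of 12 were higher in males in both strains (32.2%), 6 were higher in females in both (18.3%) and 2 went opposite ways. The 12 regions did not share a common direction between the sexes.

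**Figure D3:**
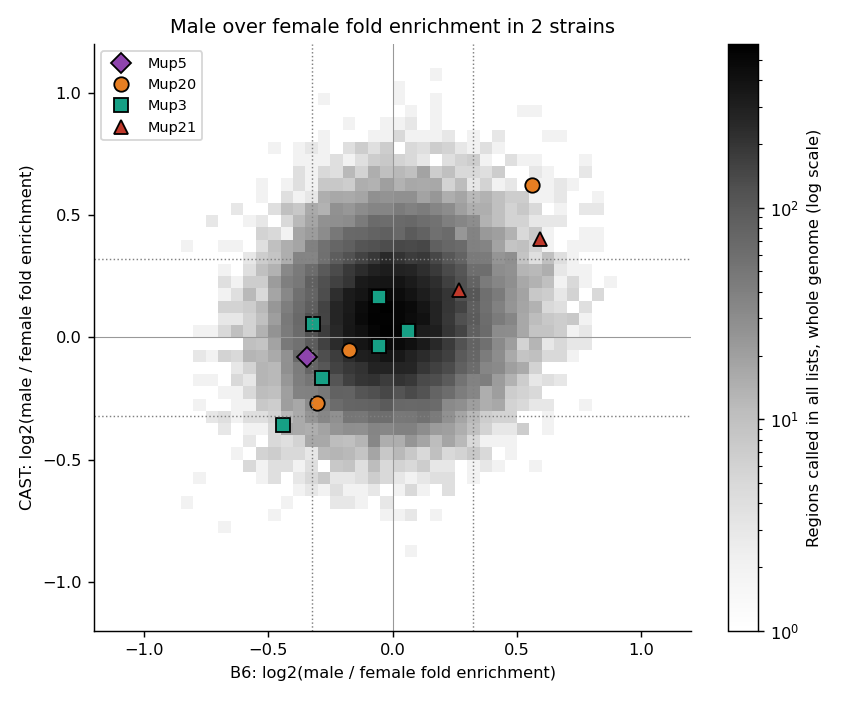
Log2 ratio of male to female fold enrichment in B6 (horizontal) and CAST (vertical) for the 12 member regions called in all lists, over the same ratios of all such regions of the genome (grey, log scale), with dotted lines at 1.25-fold. One Mup20 and 1 Mup21 region lie past both lines on the male side and 1 Mup3 region past both on the female side.

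Membership of the lists was counted over the 18 regions. Of the 18 regions, 12 were in all lists (background 40.4%) and 3 in 1 list (32.4%). Called in the male and not the female list were 2 in B6 (13.3%) and 4 in CAST (17.4%). Called in the female and not the male list were 0 in B6 (13.3%) and 0 in CAST (11.4%). The CAST male list was the longest, and with lists of equal length 2 regions were male-only in CAST. Between strains, 1 region was in both CAST lists and neither B6 list (6.15%), and 0 were in both B6 lists and neither CAST list (4.17%). In fold enrichment 1 of the 12, the 3′ region of Mup3, was more than 1.25-fold higher in CAST in both sexes (4.14%), and 0 were so in B6 (1.55%). All 13 B6 female peaks overlapped a B6 male peak, and all 14 CAST female peaks overlapped a CAST male peak, by at least 1 bp. In the other direction 13 of 16 B6 male peaks and 14 of 19 CAST male peaks were shared. The same overlaps were not counted over whole lists, so they are not read as a trait of the members.

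Covered length was compared gene by gene for the 4 members with peaks in every list. Peaks of Mup21 covered 1984 bp (B6 male), 1095 bp (B6 female), 1526 bp (CAST male) and 1353 bp (CAST female), so the male list was ahead in both strains, 1.81-fold and 1.13-fold. Mup20 covered 3075, 2402, 2957 and 2238 bp, with males ahead 1.28-fold in B6 and 1.32-fold in CAST. Mup3 covered 3696, 3805, 4391 and 3691 bp, and the sexes differed little in B6. Mup5 covered 623, 1857, 1416 and 1197 bp within its window, and B6 male was by far the lowest. The male lists were ahead in both strains in 2 members, against 42.7% of genes with a peak in either list of each strain, and the female lists in none, against 14%. Over the 15483 genes with a peak in every list, as these 4 members have, the shares were 43.0% and 13.7%.

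Past 1.5-fold, 1 member was higher in males in B6 (Mup21, background 7.26%) and 1 was higher in females in B6 (Mup5, 6.1%). The background here is genes with a peak in either list compared, which includes genes with none in the other list. In CAST none was past 1.5-fold in males (10.7%) or females (3.66%). Between strains Mup5 was the member past 1.5-fold. It was higher in CAST among males (2.27-fold, background 12.4%), where no member was higher in B6 (6.56%). Among females it was higher in B6 (ratio of CAST to B6 0.645, 12.3%), where no member was higher in CAST (11.8%). With the peaks of the far upstream Mup5 region taken whole, past the window edge, the CAST to B6 ratio was 0.795 in females, no longer past 1.5-fold, and 1.58 in males, and the male to female ratio in B6 was 0.494. Among the genes with a peak in every list the shares past 1.5-fold were 4.95% (males) and 3.49% (females) in B6 and 8.09% and 1.8% in CAST. Between strains they were 8.65% (CAST higher) and 4.51% (B6 higher) in males and 8.29% and 9.87% in females. Over the merged windows the male to female ratio was 1.02 in B6 and 1.21 in CAST, near the median gene at 1.03 and 1.08. The CAST to B6 ratio was 1.1 in males and 0.926 in females, against 1.01 and 0.968 for the median gene.

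The male-only region of Mup21 had close relatives next to the other genes. Aligned with BLAST, it matched a stretch at about -1.5 to -1.1 kb of all 6 other members, at 91.4% identity in Mup3, 85.6% in Mup6, 83.3% in Mup5, 83.1% in Mup1, 81.9% in Mup20 and 78.9% in Mup4. In Mup21 alone this element lies near -8 kb. The copies of Mup3 and Mup20 overlapped regions called in all 4 lists, in females as in males, and extended past their edges. Those of Mup4, Mup5, Mup6 and Mup1 were in no list. The element is printed for the 150 bases around the summit of the B6 male peak of Mup21 (chr4:61820004-61820153, minus strand). Its aligned copies follow for Mup3 (chr4:61749558-61749711, minus), Mup20 (chr4:61716402-61716556, minus) and Mup5 (chr4:61497476-61497634, minus). These related sequences were marked in 3 different ways. Capitals mark bases that differ from Mup21 in the alignment or have no partner there.
Mup21: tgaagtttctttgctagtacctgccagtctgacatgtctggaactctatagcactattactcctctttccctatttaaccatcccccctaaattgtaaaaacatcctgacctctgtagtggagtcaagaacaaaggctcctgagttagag
Mup3: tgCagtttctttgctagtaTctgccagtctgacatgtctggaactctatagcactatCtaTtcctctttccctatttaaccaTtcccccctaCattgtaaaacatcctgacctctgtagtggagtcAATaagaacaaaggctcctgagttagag
Mup20: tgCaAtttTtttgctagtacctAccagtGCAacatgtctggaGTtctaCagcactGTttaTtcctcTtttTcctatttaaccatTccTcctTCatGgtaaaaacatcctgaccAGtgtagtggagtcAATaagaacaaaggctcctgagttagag
Mup5: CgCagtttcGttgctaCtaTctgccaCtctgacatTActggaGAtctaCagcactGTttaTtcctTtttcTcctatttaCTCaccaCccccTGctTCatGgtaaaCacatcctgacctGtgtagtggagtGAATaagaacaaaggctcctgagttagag

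The printed copies were 93.5% identical to Mup21 in Mup3, 83.9% in Mup20 and 80.5% in Mup5. All bases of the 4 printed stretches were unique, 100.0% each, and the copies of Mup6 and Mup4 were unique at 89.6% and 100.0%. The Mup1 copy held no unique base over the same stretch.

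The element upstream of the Mup21 promoter also held the STAT5 core letters. The match, at -459 to -451 of Mup21, has a counterpart at -460 to -452 of Mup3, each inside a region called in all lists. The 100 bases around it are shown for 5 genes with TTCNNNGAA in capitals: Mup21 (chr4:61812302-61812401, minus), Mup3 (chr4:61748782-61748881, minus), Mup5 (chr4:61496709-61496808, minus), Mup6 (chr4:60015806-60015905, plus) and Mup4 (chr4:59973990-59974089, minus).
Mup21: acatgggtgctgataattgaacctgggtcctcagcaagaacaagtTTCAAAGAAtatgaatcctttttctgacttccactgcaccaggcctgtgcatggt
Mup3: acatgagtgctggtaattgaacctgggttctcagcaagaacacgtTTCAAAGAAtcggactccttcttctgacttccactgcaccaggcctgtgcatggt
Mup5: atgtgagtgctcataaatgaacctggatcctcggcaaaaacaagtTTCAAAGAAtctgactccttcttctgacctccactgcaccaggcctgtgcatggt
Mup6: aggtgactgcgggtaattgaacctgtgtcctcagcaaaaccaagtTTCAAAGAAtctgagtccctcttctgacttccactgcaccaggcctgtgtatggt
Mup4: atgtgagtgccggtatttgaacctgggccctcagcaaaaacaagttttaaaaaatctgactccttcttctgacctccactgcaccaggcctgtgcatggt

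The letters were kept in Mup5, Mup6 and Mup1, where no peak was called, and were not in the copies of Mup4 and Mup20. In Mup1 and Mup20 this stretch held no unique base. The aligned stretch was 92.0% identical to Mup21 in Mup3, 88.0% in Mup5, 86.0% in Mup6 and 86.0% in Mup4. Of the 18 called regions, 3 held the letters: this one of Mup21, its Mup3 counterpart, and the male-higher -9.6 kb region of Mup20 with 3 matches. In stretches centred on all regions of the genome, the letters were in 28.2% at the width of the Mup21 region (989 bp), 12.2% at that of Mup3 (395 bp) and 40.3% at that of Mup20 (1554 bp). Over the widths of all 18 regions this share ran from 7.54% to 57.7% with a mean of 20.8%, against 16.7% of the 18. The letters were absent from the widest, the 2627 bp region of Mup5. A match in these letters says nothing of binding, which was not measured here.

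The same comparison was made for every called region, keeping copies that aligned over at least 60% of the region within 15 kb of another member's start. There were 65 such copies, some of which overlap each other, and 12 of them overlapped a called region by at least 1 bp. Next to Mup4, Mup5 and Mup6 there were 36 copies, each unique at 70% of its bases or more, and 1 was called. Next to Mup3, Mup20 and Mup21 there were 13 copies with as much unique sequence, and 11 were called. The 12 copies next to Mup1 were all below 70%, with at most 34.2% of bases unique, and none was called. The median identity to the called region was 83.8% over the 36 copies of Mup4, Mup5 and Mup6 and 83.6% over all 17 copies of Mup3, Mup20 and Mup21, 4 of them below 70% unique. Since the called regions come mostly from the last 3 genes, this split is partly built into the choice and is given as a description.

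**Figure D4:**
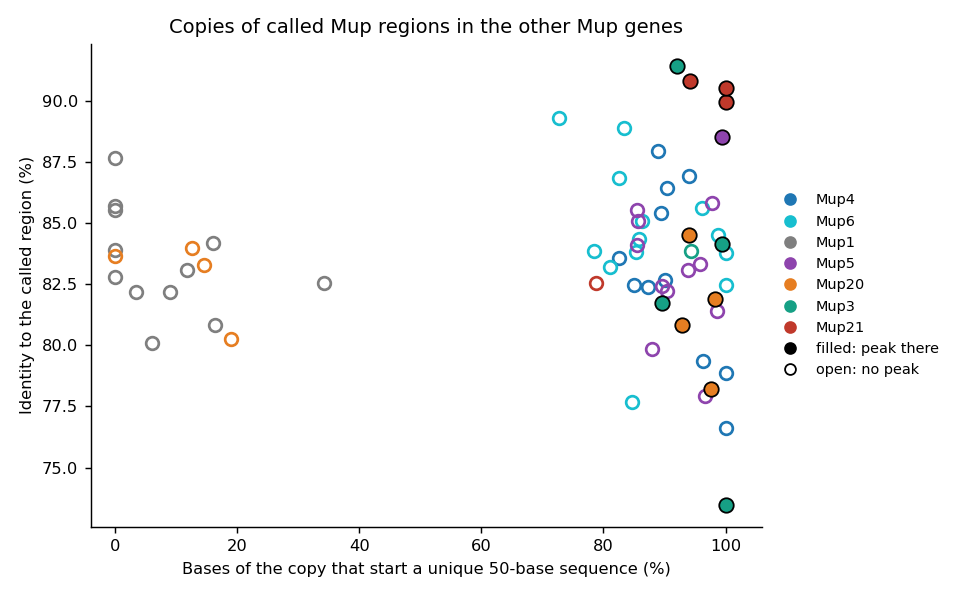
Identity of each copy to the called region it resembles (vertical axis, percent) against the share of the copy's bases that start a unique 50-base sequence (horizontal axis, percent), coloured by the gene beside which the copy lies, filled where a peak was called. Filled points all lie at 89.6% unique or above, where many open points of Mup4, Mup5 and Mup6 also lie, while no Mup1 point lies above 34.2%.

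Across the cluster nearly all peak sequence was unique. In the merged member windows 59.9% of bases were unique. Of these unique bases 10.8% lay under a peak of any list, against 0.458% of the bases that were not unique. In the whole cluster, where 24.9% of bases were unique, the shares were 6.86% and 0.0866%. Of 34 other Mup genes, 27 had no peak in any list, including 13 of 14 protein-coding ones. The exception was Mup16 (named after its values were seen), which had 20 bp in the CAST male list and 223 bp in the CAST female list. The most covered were the pseudogenes Mup-ps20, Mup-ps21, Mup-ps16 and Mup-ps19, the first with 4962, 3207, 4728 and 3002 bp in the 4 lists (B6 male, B6 female, CAST male, CAST female). How much of the Mup signal was lost with reads of several places was not tested.

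**Figure D5:**
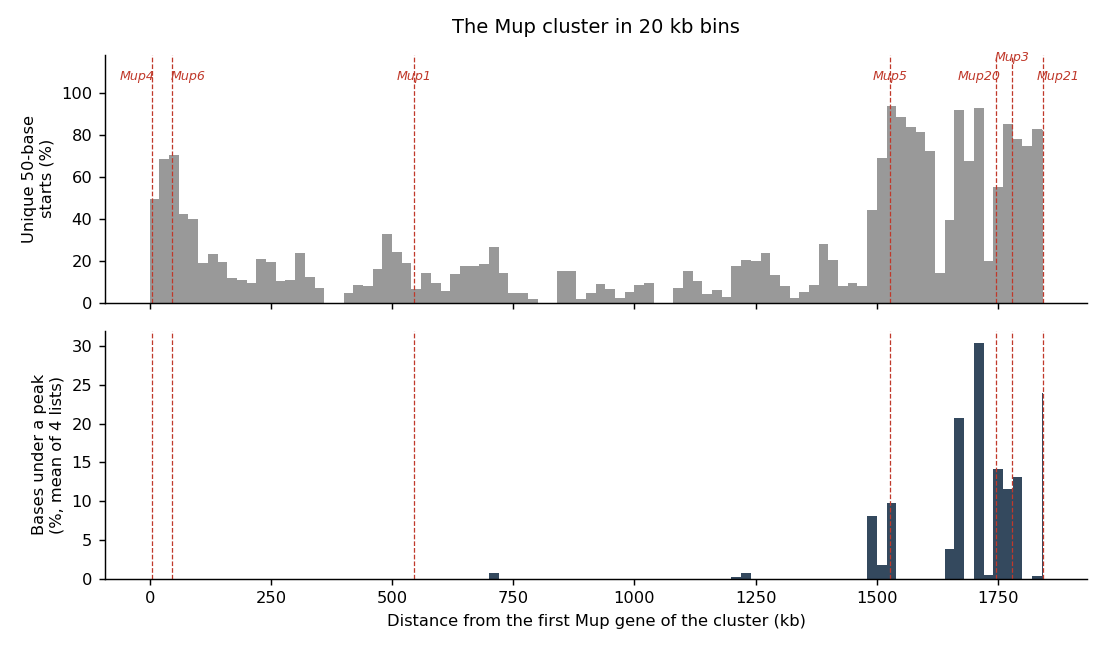
The cluster in 20 kb bins (the last one shorter) by distance in kb from the first Mup gene, with the share of unique 50-base starts (top, percent) and the share of bases under a peak averaged over the 4 lists (bottom, percent), and dashed lines at the 7 starts. Peaks gather at the unique end that holds Mup5, Mup20, Mup3 and Mup21, and none lies at the unique end that holds Mup4 and Mup6.

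Other lipocalin genes, in sequence that is almost wholly unique (89.4% to 99.3% of their windows), gave a contrast. All 10 of Ambp, Orm1, Orm2, Orm3, Rbp4, Apom, C8g, Lcn2, Apod and Ptgds had peaks in every list. So did 15483 of all 22350 protein-coding genes. Their median covered share was 14.2%, 15.5%, 15.5% and 16.5% in the order B6 male, B6 female, CAST male, CAST female, and 0 of 10 were past 1.5-fold between the sexes in either strain. Mup3 came to similar shares, with 15.5%, 15.9%, 18.4% and 15.5%. All 10 genes of a growth hormone list (Ghr, Jak2, Stat5a, Stat5b, Bcl6, Hnf4a, Onecut1, Foxa2, Zhx2 and Nr3c1) had a peak within 1 kb of the start in every list, against 52.3% of all genes. Of these 10, 0 were past 1.5-fold between the sexes. Of 10 genes of known male-biased expression 3 in B6 and 5 in CAST were past 1.5-fold in the male direction and 0 in the female one. They include Cyp4a12a, which had no peak in any list. Of 10 female-biased genes 6 and 9 were past 1.5-fold in the female direction and 0 in the male one. Among all genes with a peak in either list, 7.26% (B6) and 10.7% (CAST) were past it in males. In females the shares were 6.1% and 3.66%. These 2 lists hold genes the study named from its own animals, so their direction is not independent.

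The pattern of covered bases over the 4 lists was most alike, by distance between centred log2 values among 10302 genes, in Tmprss6, Gin1, Cstad, Setd5 and Ccdc104. The lists had 79862 to 90228 peaks. As a check of the tissue, 7 of 8 hepatocyte markers had a peak within 1 kb of the start in every list, and the eighth, Serpina1a, had none in its window. Of 4 markers each, the number with a marked start per list was 0 or 1 for Kupffer cells, 3 or 4 for endothelial cells, 1 or 2 for stellate cells, 0 for T and B cells, 0 or 1 for skeletal muscle and 1 or 2 for brain.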

How the data were processed

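H3K27ac ChIP-seq of 20 livers and 4 inputs was represented by 4 peak lists, 1 per group. As the methods state, the authors pooled the 5 replicates of a group, aligned B6 reads to mm9 with Bowtie2 and CAST reads to a CAST genome made from mm9 whose coordinates were then converted, kept uniquely mapped reads, used MACS2 with the matching input to call peaks, and removed known artefact regions. The deposited lists give for each peak a score (10 times the −log10 of the q-value, rounded down), a fold enrichment over background (a ratio) and the −log10 of the q-value, of which the lowest was 1.30. Their −log10 p-value was not used. The lists number their peaks, and 599 numbers were missing from the B6 male list and 579 from the B6 female list. In both CAST lists 0 were missing, and within the cluster 0 were missing from any list. The cause of this difference was not tested. Read depth was not analysed here, so counting intervals could not be given.

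Peaks overlapping a gene body or its 10 kb flanks by at least 1 bp were counted with Python 3.11.15, numpy 2.4.6 and pandas 2.3.3 (figures, matplotlib 3.10.9), against NCBIM37 and GENCODE vM1. A region took the highest fold enrichment of its peaks in each list. Calls were a 1.5-fold difference in covered bases, or 1.25-fold in fold enrichment (this limit and its alternatives were set with the values known); the background was genes with a peak in either list compared, a gene with none in the other list counting as past the fold, and, as a second share, genes with a peak in every list. Unique sequence was counted on both strands of the placed chromosomes of mm9, in B6 sequence only. Copies were found with BLAST 2.17.0 (e-value at most 1e-20) and promoters aligned with Biopython 1.88. The code was tested on simulated data. All 7 members are named; other Mup genes, lipocalins, sex-biased, growth hormone and marker genes were given as lists with the 4 most covered further Mup genes named, and the 5 genes most alike in pattern had at least 2000 covered bases in every list. The members and lists were chosen with earlier results of these data known. Alternatives were the gene body alone, 25 kb flanks, −log10 q of at least 5, fold enrichment of at least 3, equal list lengths, peaks at least 50% unique, regions joined over 500 bp, overlap of 50% of both peaks, unweighted medians, 100-base sequences and pairs from 200-base fragments.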

Additional observations from a re-analysis of the deposited data

Results flagged for a closer look

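Over the whole window the covered bases of Mup5 gave a male to female ratio of 0.335 in B6 and 1.18 in CAST, and a CAST to B6 ratio of 2.27 in males and 0.645 in females, on opposite sides of 1 in each pair. Each value compares 1 pooled list with another, so the difference was not tested. The CAST male value of 1416 bp includes the weak downstream peak of 244 bp, and in the far upstream region alone CAST males had 1172 bp and CAST females 1197 bp within the window, a ratio of 0.979, so that males were lower in both strains. That region crosses the edge of the window. With its peaks taken whole, the male to female ratio was 0.494 in B6 and 0.984 in CAST, and the CAST to B6 ratio was 1.58 in males and 0.795 in females.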

How the results depend on the processing

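Of 149 alternative values, 113 kept within 1.5 times of the main value, or within 1.5-fold for a ratio, and 36 moved further. The window set the totals. With the gene body alone the B6 male, B6 female, CAST male and CAST female lists had 3, 3, 4 and 3 peaks over 1502, 1547, 1810 and 1593 bp, in 4 regions, of which 3 were in all lists and 1 in 1 list, with 0 (B6) and 1 (CAST) male-only. With 25 kb flanks they covered 15663, 14626, 17732 and 14831 bp in 28 regions, of which 8 were in 1 list, 4 were male-only (B6) and 1 was female-only (CAST). Peaks with a fold enrichment of at least 3 numbered 10, 8, 11 and 9, in 11 regions, with 0 in 1 list and 2 male-only in CAST. With a −log10 q-value of at least 5, 1 region was female-only in B6 and 2 were male-only in CAST, and with lists of equal length 2 were male-only in CAST. Joining peaks up to 500 bp apart left 7 regions in all lists. The fold enrichment limit of 1.25-fold and its 3 alternatives were all chosen after the data were seen, and the calls rest on the limit. Past it in both strains were 2 regions in males and 1 in females. At 1.1-fold there were 3 and 3, at 1.2-fold 2 and 2, the added female one being the strongest region of Mup20, and at 1.5-fold 0 and 0. The log2 ratio of male to female covered bases ran from -0.04 to 0.13 in B6 and from 0.17 to 0.28 in CAST, and that of CAST to B6 from 0.02 to 0.27 in males and from -0.18 to 0.04 in females. For Mup5, restriction to its far upstream region, added after the data were seen, kept the sign of 3 of the 4 ratios of covered bases and turned that of male to female in CAST from 0.24 to -0.03 (log2) within the window and -0.02 with whole peaks. The cause of these moves, beyond the peaks each setting keeps, was not tested. The share of unique sequence in the windows rose from 59.9% to 73.6% with 100-base sequences and 70.6% with fragment ends. No paired analysis was possible because each list is a pool of 5 livers, and for the same reason no liver could be left out. Without read depth, a peak missing from a list may lie just under its threshold.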
